A study of Mus musculus with 18 samples.

Results

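In mouse myotubes, mRNA isoforms whose 5′ leader held an open upstream AUG were examined for polysome loading and stability. An upstream AUG was called open when its reading frame met no stop codon before the leader ended. Members were nuclear isoforms that the authors classed as annotated transcripts, with a deposited leader over 30 nt holding at least 1 open AUG. They numbered 590 of the 3090 annotated nuclear isoforms with such leaders in the polysome table (19.1%, 95% Wilson interval 17.7 to 20.5%), from 408 loci. The decay table held 487 of 2869 (16.97%, 15.6 to 18.4%), from 371 loci. In all, 866 isoforms qualified in at least 1 table and 211 in both.

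Gastrocnemius muscles of female mice, genotype WT, supplied the primary myoblasts, and all cells were turned into myotubes by 24 h in 1 µM of the ERK inhibitor SCH772984. TIF-seq2, which joins both ends of an mRNA molecule, was run on 18 libraries. In polysome profiling, cycloheximide-treated lysates (100 µg/ml for 5 min) were split on sucrose gradients (10 to 50%), and 3 pools were taken: mRNA free of polysomes, light polysomes with 2 to 5 ribosomes, and heavy ones with at least 6, from the same 2 mice in each pool, per the sample titles. In the decay assay, actinomycin D (7.5 µg/ml) stopped transcription for 0, 3, 6 or 12 h, with the same 3 mice at every time. The authors deposited 1 pooled coverage count and 1 value per isoform, called TE for the polysome assay, short for translation efficiency, or half-life for the decay assay. Neither table says how its value was computed or in which unit, and no column belonged to a single library, so the spread between mice is unknown and none of the differences below was tested. Intervals and standard errors describe the spread across isoforms or loci only.

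A scanning ribosome usually starts at the first AUG it meets in a favourable sequence context. An upstream AUG can therefore capture ribosomes ahead of the main reading frame. When its frame closes inside the leader, a short upstream peptide is made and ribosomes may resume scanning. When its frame does not close there are 2 outcomes. A frame in step with the main start adds amino acids to the amino terminus of the protein, whereas a frame out of step runs across the main start and ends beyond it. The stress-response factors Atf5 and Ddit3 are known examples of control through upstream frames.

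Of the members in the polysome table, 77 had open AUGs only in frame with the main start, 486 only in an overlapping frame and 27 both kinds. In the decay table these numbers were 73, 392 and 22. The isoforms they were set against had only contained AUGs, whose frames closed inside the leader (786 in the polysome and 620 in the decay table), or no upstream AUG (1714 and 1762). Members carried 9.73% of the polysome coverage of 1601919 and 8.11% of the decay coverage of 3121491.

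Gene names came from a match of the first 20 bases of a leader to RefSeq promoter windows of build GRCm38, or from a main start shared with an isoform so matched. Positions are those of the deposited tables, in build GRCm39. The match named 305 members of 204 genes in the polysome table and 254 members of 194 genes in the decay table. Where a whole leader lay unbroken within a window that reached past its end, the next bases were ATG for 177 of 188 leaders (94.1%). Most of these leaders thus ended at a start codon. Leaders too long for the window or interrupted by an intron could not be checked, and their end at the main start is assumed. Introns are not listed, since the tables give only ends and UTR sequences. An intron within a leader can be inferred only for some isoforms, such as those in certain nested pairs described below.

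The in-frame AUGs of 7 isoforms are shown first, because they carry the frames that would lengthen a protein. Letters are DNA, 5′ to 3′, and capitals mark 1 open AUG per isoform. The Slc6a9 window holds another open AUG, an overlapping one 8 nt before the main start, in small letters. The Slc6a9 and Selenow windows end where the main start begins.
Slc6a9: gcctcgggaggctgcgtgggctatggtATG
Selenow: tcgtgttgtgcggggATGcgacgtgcagct
Emc10: gcgggctgtATGgctctcggtttttctcaa
Psmc5: gacttggATGccggcgatccctgccgagag
Srpk3: ataaATGcactggccacggctgggccccac
Myog: agggtttaaATGgcacccagcagttggtgt
Cgref1: cgacgtggaATGgccacgtggagccgcccg
In build GRCm39 these isoforms spanned chr4:117692518-117726501 (Slc6a9, plus strand), chr7:15651140-15656271 (Selenow, minus strand), chr7:44139548-44145842 (Emc10, minus strand), chr11:106146980-106153943 (Psmc5, plus strand), chrX:72817981-72822528 (Srpk3, plus strand), chr1:134217710-134220287 (Myog, plus strand) and chr5:31090488-31102867 (Cgref1, minus strand). In Slc6a9, which encodes a glycine transporter, the marked AUG directly adjoined the main start and would add 1 codon. Its leader also held an open in-frame AUG further upstream, which would add 41 codons. For Selenow, a selenoprotein abundant in muscle, the extension was 5 codons. It was 10 codons for both Emc10, a subunit of a membrane protein insertion complex of the endoplasmic reticulum, and Psmc5, an ATPase of the proteasome. The muscle kinase gene Srpk3 had a predicted extension of 24 codons, the muscle regulator Myog (myogenin) one of 25 codons and Cgref1 one of 45 codons. The marked AUG began close to the 5′ end in Srpk3 (base 5 of the leader), Psmc5 (base 8) and Myog (base 10). In these and in Emc10 (base 20) a T stood in the third position before it, and in Slc6a9, Selenow and Cgref1 a G. Whether ribosomes start at any of these AUGs was not tested.

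Overlapping AUGs of 8 isoforms are shown next, ordered by distance to the main start. The first 4 windows end at the main start, so the bases after the capitals are all that separates both AUGs. The Ddit3 window holds its second open AUG, 74 nt before the main start, in small letters.
U2af1l4: aggagaagtatggagagattgaagagATGa
Jph2: gacggaggagttgtcaggagcgaggATGag
Tnnt2: acaaggccccagcccacATGagccgagagc
Ubtd1: ggtgcATGggggaccggctgagaagccagc
Ssr4: ctgctccgcATGtccagggtggcttgctct
Ddit3: gattatatcATGttgaagatgagcgggtgg
Actn2: catccatccATGtgctggtccatccatcca
Atf5: ttcgccgccATGgaattttcaaccctctca
Their isoforms spanned chr7:30262769-30264787 (U2af1l4, plus strand), chr2:163178163-163239883 (Jph2, minus strand), chr1:135764044-135779998 (Tnnt2, plus strand) and chr19:41970155-42023080 (Ubtd1, plus strand). The remaining ones spanned chrX:72830618-72834416 (Ssr4, plus strand), chr10:127126666-127132153 (Ddit3, plus strand), chr13:12284315-12355613 (Actn2, minus strand) and chr7:44461681-44466023 (Atf5, minus strand). The open AUG began 4 nt before the main start in U2af1l4, a splicing factor gene, and 5 nt before it in Jph2, whose product junctophilin 2 ties the sarcoplasmic reticulum to the muscle surface membrane. It lay 13 nt before it in the troponin T gene Tnnt2 and 25 nt in Ubtd1. The distance was 47 nt in Ssr4, a subunit of the translocon-associated complex, 83 nt in Ddit3, 100 nt in Actn2, which encodes alpha-actinin of the Z-disc, and 146 nt in Atf5. Overlapping frames thus ranged from ones that abut the main start to ones that begin far into the leader.

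Across both tables the members' leaders held 796 different open AUGs, apart from 1 isoform with a deposited leader of 49855 nt, which alone held 648 contained AUGs and was left out of the counts of sites. Of these 146 were in frame with the main start (18.3%), 264 lay at a distance that leaves a remainder of 1 on division by 3, and 386 at one that leaves 2. Contained AUGs, 2775 sites in the leaders of members and others, were spread more evenly, with 31.9% at a distance from the main start divisible by 3. Open sites lay close to the main start, at a median of 56 nt (quartiles 28 and 103 nt), against 182 nt for contained sites (106 and 303 nt). Being open depends on this distance, since a longer stretch offers more chances of a stop codon. In-frame sites would extend the protein by a median of 24 codons, from 1 to 190, and 125 of the 146 extensions were under 50 codons.

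**Figure D1:**
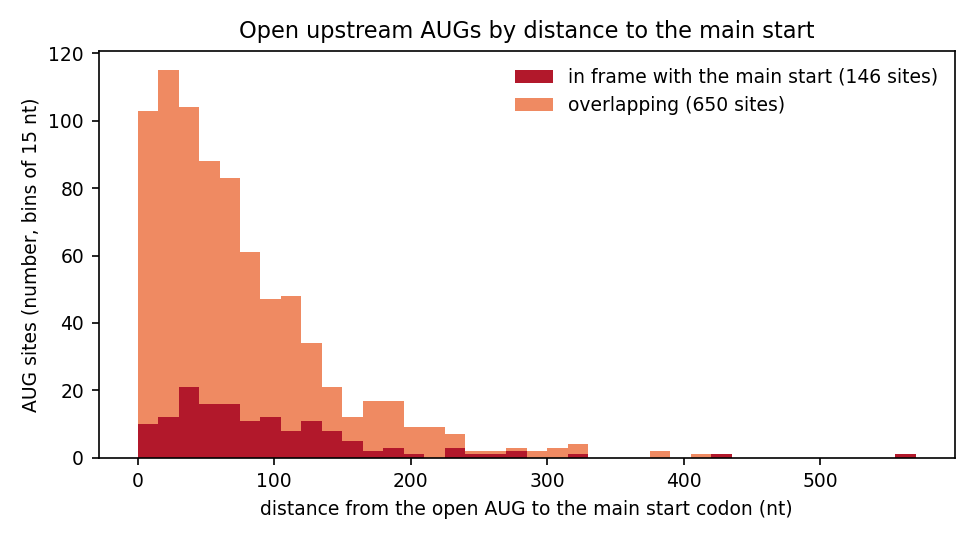
Number of different open upstream AUGs in the leaders of member isoforms (y axis, bins of 15 nt, stacked) against the distance from the AUG to the main start codon in nt (x axis), for 146 in-frame sites (dark red) and 650 overlapping sites (orange). Sites of both kinds crowd near the main start, with medians of 72 nt for in-frame and 53 nt for overlapping sites.

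Of the 650 overlapping sites, 314 lay within 50 nt of the main start. In 36 of the 386 sites with remainder 2 (9.33%) the last leader bases and the first base of the main AUG formed a stop codon, TGA in 27 and TAA in 9. These frames are overlapping by the rule but end on the main start itself.

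The strongest start context was less frequent around open than around contained AUGs. A purine stood in the third position before 53.7% of open AUGs (50.1 to 57.2%), against 59.1% of contained ones (57.3 to 61.0%). That purine together with a G directly after the AUG, the strongest context, was found at 16.1% of open (13.7 to 18.9%) and 23.0% of contained AUGs (21.5 to 24.6%), and these intervals did not overlap. The in-frame sites (55.8% with the purine, 47.2 to 64.1%) and overlapping sites (53.2%, 49.3 to 57.1%) differed by less than their intervals. Among main starts, by contrast, the purine was present in 81.0% of the members used for TE, 80.6% of isoforms with contained AUGs and 90.5% of isoforms with none.

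Values were then compared for isoforms with a coverage of at least 30, a value above 0 and both UTR sequences. For TE, 337 members of 269 loci passed, and 251 had too little coverage. For half-life, 388 members of 318 loci passed, and 94 had too little. Of the members with enough coverage, 2 had no TE. For half-life 3 had no value and 2 no 3′ UTR sequence. Leaders of members passing for TE had a median length of 214 nt, against 230 nt with contained AUGs and 88 nt with no upstream AUG, so members differed from the last class in length as well as in AUGs.

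The median TE of members was lower than that of isoforms with no upstream AUG and slightly above that of isoforms with contained AUGs. The median TE was 0.000687 for in-frame members (0.000557 to 0.000817, n = 40 isoforms), 0.000668 for overlapping members (0.000623 to 0.000717, n = 281) and 0.000575 for members with both kinds (0.000429 to 0.00105, n = 16). It was 0.000599 with contained AUGs only (0.000569 to 0.000640, n = 458) and 0.000810 with none (0.000784 to 0.000843, n = 1083). The intervals of overlapping members and of isoforms with none did not overlap. In log2 terms the medians of in-frame and overlapping members lay -0.24 and -0.28 from that of isoforms with none. Against isoforms with contained AUGs they lay higher, by 0.20 and 0.16. For overlapping members this value ran from 0.08 to 0.25 over 8 other settings, and the interval included 0 in 4 of them. Between in-frame and overlapping members the difference was 0.04, small beside the quartile range of either class.

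**Figure D2:**
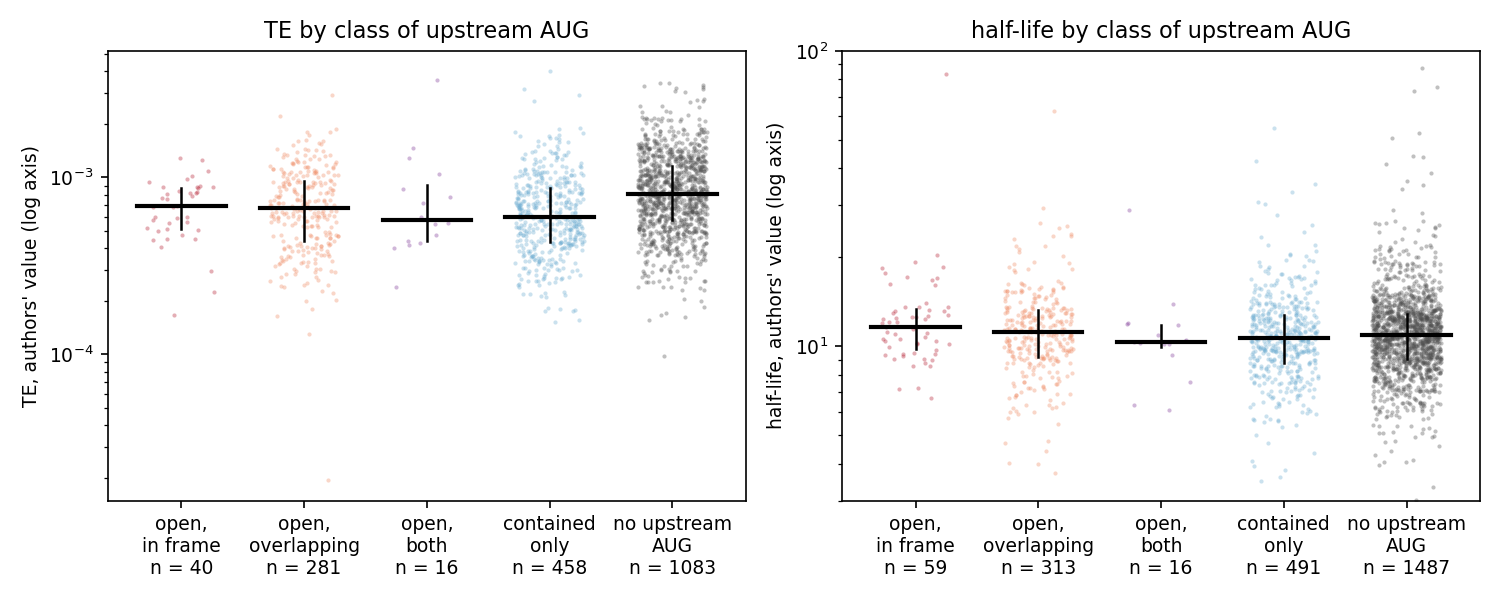
TE (left) and half-life (right) of each isoform on log axes, by class of upstream AUG, with the number of isoforms under each class. Thick bars are medians and vertical lines run between the quartiles. Median TE is 0.000687 in in-frame and 0.000668 in overlapping members against 0.000810 with no upstream AUG, while median half-lives lie between 10.4 and 11.6 in all 5 classes. The half-life axis runs from 3 to 100 and leaves out 10 isoforms.

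The tails moved with the medians. Over all 1878 isoforms compared, 25% lay under the lower quartile by construction. Of the members 104 of 337 did (30.9%), made up of 10 of 40 in-frame, 88 of 281 overlapping and 6 of 16 isoforms with both kinds, against 167 of 458 with contained AUGs (36.5%) and 199 of 1083 with none (18.4%). Above the upper quartile were 63 members (18.7%), against 340 isoforms with none (31.4%). In-frame members supplied 3 of the 63, out of 40 isoforms (7.50%, 2.58 to 19.9%).

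The in-frame difference was not firm. With a coverage of at least 100 it was -0.03 (16 isoforms), with 1 isoform per locus -0.05 (22 isoforms), and where the open AUG was the only upstream AUG 0.01 (20 isoforms). It was larger, -0.48 (-0.71 to -0.06), where the open AUG had a purine in the third position before it, -0.33 (-0.63 to -0.07) for means of log2 values, and -0.26 (-0.55 to -0.02) with no coverage minimum. Its interval reached from -0.54 to 0.02 with all 40 isoforms. The overlapping difference was -0.28 with a coverage of at least 100 and -0.25 with 1 isoform per locus. It was -0.18 (-0.32 to 0.03) for leaders up to 300 nt and -0.11 (-0.27 to 0.10) for the 115 isoforms in which the overlapping AUG stood alone.

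Members had a lower TE the more contained AUGs stood beside the open one. Members with no contained AUG had a median TE of 0.000781 (0.000713 to 0.000866, n = 154), those with 1 had 0.000617 (0.000490 to 0.000764, n = 66), and those with 2 or more had 0.000540 (0.000468 to 0.000600, n = 117). The same order held in overlapping members, at 0.000749, 0.000617 and 0.000552. In-frame members had 0.000814, 0.000520 and 0.000510, with only 5 isoforms in the middle group. Leader length moved with these groups, with medians of 124, 248 and 335 nt, and its part in the result was not tested. The number of open AUGs itself showed no such order, with 0.000673 for 1 open AUG (n = 272), 0.000642 for 2 (n = 43) and 0.000696 for 3 or more (n = 22).

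**Figure D3:**
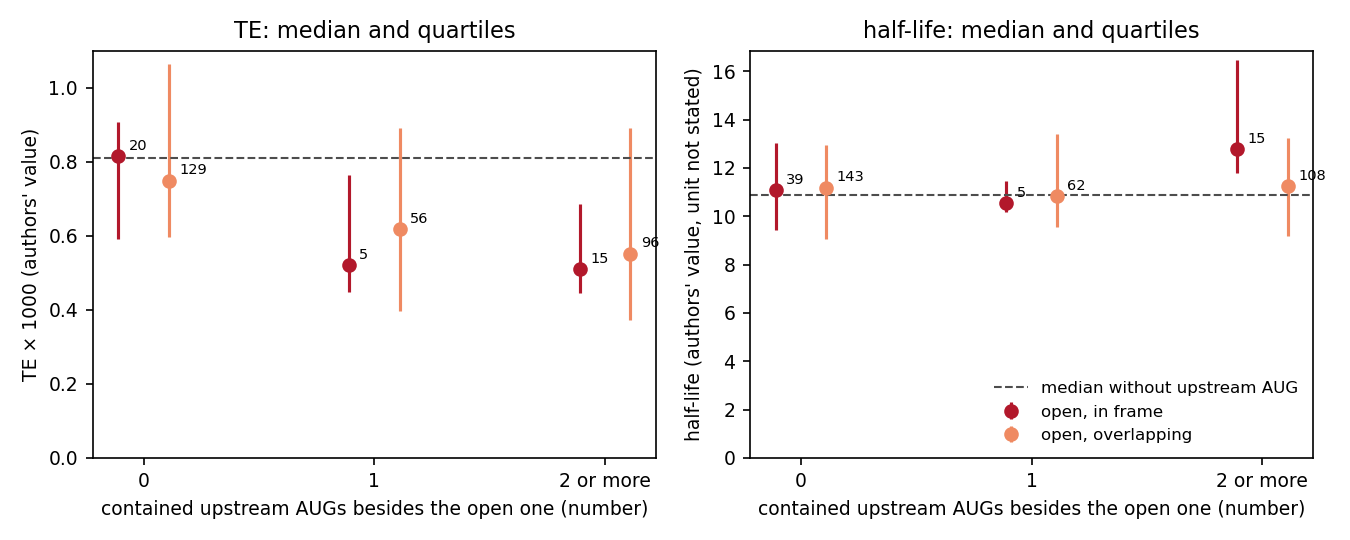
Median TE times 1000 (left) and half-life (right) of in-frame (dark red) and overlapping (orange) members, by the number of contained AUGs in the same leader. Vertical lines run between the quartiles, small numbers give the isoforms per point, and the dashed line is the median of isoforms with no upstream AUG. Overlapping members without a contained AUG have a median TE of 0.000749, and those with 2 or more 0.000552.

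Position from the cap followed the same pattern as length. Members whose first open AUG began within 20 nt of the 5′ end had a median TE of 0.000758 (n = 41), and those with it over 200 nt away had 0.000537 (n = 112), with leader medians of 87 and 369 nt. Distance to the main start ordered TE little, at 0.000703 within 25 nt (n = 66), 0.000703 at 26 to 50 nt (n = 97), 0.000670 at 51 to 100 nt (n = 98) and 0.000588 at 101 to 200 nt (n = 62). A purine in the third position before the open AUG went with a TE of 0.000632 (0.000581 to 0.000720, n = 186), against 0.000691 without it (0.000629 to 0.000786, n = 151), and these intervals overlapped.

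Among leaders of like length up to 400 nt, the gap to isoforms with no upstream AUG was narrower. At 31 to 100 nt members had a median TE of 0.000758 (n = 65), against 0.000599 with contained AUGs (n = 39) and 0.000842 with none (n = 628). At 101 to 200 nt the members' median of 0.000785 (n = 89) was close to the 0.000797 of isoforms with none (n = 327) and above the 0.000592 of contained ones (n = 148). At 201 to 400 nt the values were 0.000668 (n = 133), 0.000627 (n = 183) and 0.000705 (n = 120). Over 400 nt, members had the lowest of the 3 medians, 0.000489 (n = 50), against 0.000571 (n = 88) and 0.000786, the last from only 8 isoforms. The member with the deposited leader of 49855 nt, at chr2:156563040-156604878, had the lowest TE of all, 1.95e-05. Fewer bases lie between its ends than that leader holds, so the deposited leader cannot be right and its class is in doubt. It was kept among the overlapping members and the leaders over 400 nt. The next longest leader of a member was 1375 nt.

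**Figure D4:**
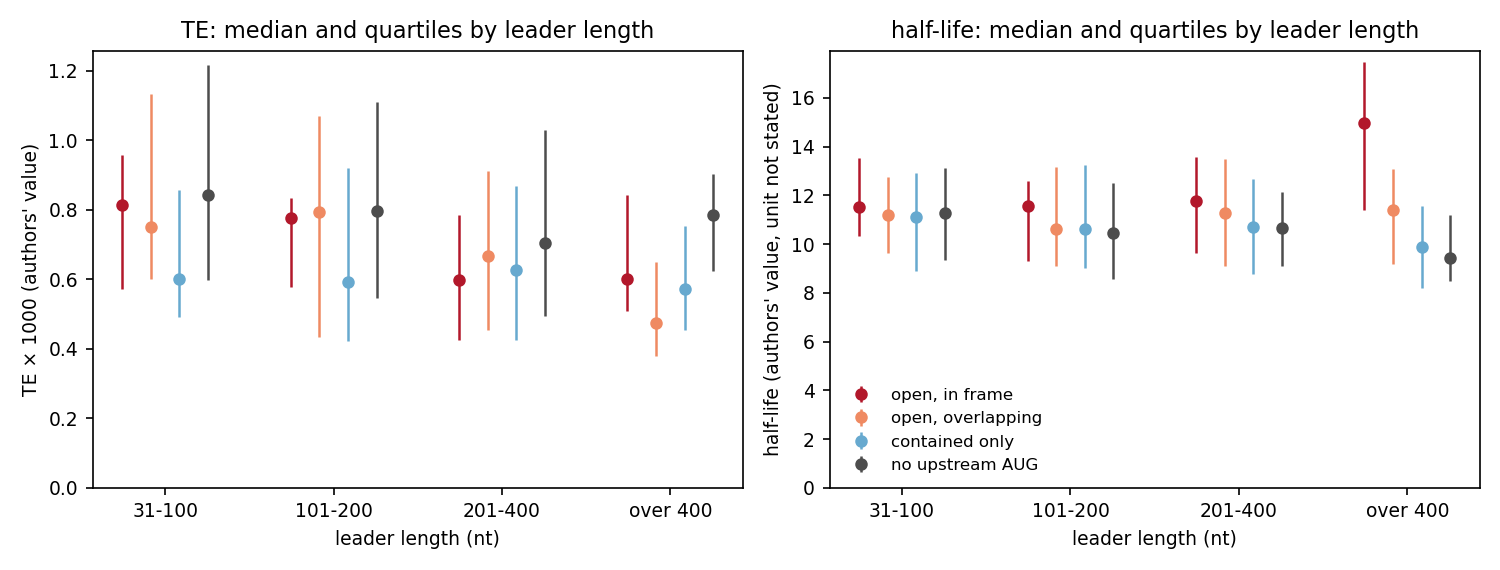
Median TE times 1000 (left) and half-life (right) with quartiles (vertical lines), in 4 ranges of leader length in nt, for in-frame (dark red) and overlapping (orange) members and for isoforms with contained AUGs only (blue) or with no upstream AUG (grey). At 101 to 200 nt overlapping members (median TE 0.000794) lie near isoforms with no upstream AUG (0.000797) and above those with contained AUGs (0.000592).

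A least-squares fit of log2 TE on class, both UTR lengths and coverage gave differences from isoforms with no upstream AUG of -0.28 ± 0.10 for in-frame, -0.18 ± 0.06 for overlapping and -0.01 ± 0.16 for members with both kinds (SE over loci, 1878 isoforms of 1382 loci). For contained AUGs the value was -0.23 ± 0.05. In this fit in-frame members thus lay slightly below isoforms with contained AUGs, unlike their medians, by less than either SE. The residual SD of single isoforms was 0.67, larger than any of these shifts. With a coverage of at least 100 the in-frame coefficient was -0.11 and the overlapping one -0.12, and both intervals then included 0. Isoforms of the same class that shared an end and lay under 20 nt apart at the 5′ or under 50 nt apart at the 3′ end also differed in TE, by a root mean square of 0.44 log2 (39 loci), which gives a scale for single values.

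Half-life differed little between the classes. The median was 11.6 for in-frame (10.5 to 12.6, n = 59), 11.1 for overlapping (10.6 to 11.4, n = 313) and 10.4 for members with both kinds (9.32 to 11.9, n = 16). Isoforms with contained AUGs had 10.6 (10.4 to 10.98, n = 491) and those with none 10.9 (10.7 to 11.1, n = 1487). In log2 terms in-frame members lay 0.10 above isoforms with none, with an interval from -0.05 to 0.22, and overlapping members lay 0.03 above them (-0.04 to 0.08). The sign of the in-frame difference depended on the coverage minimum, since it was -0.06 among the 33 isoforms with a coverage of at least 100. Against a share of 25% of all 2366 isoforms by construction, 109 of 388 members lay above the upper quartile (28.1%) and 82 below the lower one (21.1%). The fit that accounts for lengths and coverage gave 0.16 ± 0.07 for in-frame and 0.02 ± 0.03 for overlapping members, with a residual SD of 0.53. The in-frame value was 0.05 (-0.15 to 0.25) with a coverage of at least 100 and 0.15 (-0.07 to 0.37) with 1 isoform per locus. The coverage in that fit is pooled over all decay times.

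Among in-frame members, half-life differed with the length of the predicted extension. It was 10.4 where the open AUG lay within 25 nt of the main start (n = 14), 10.3 at 26 to 50 nt (n = 14), 12.4 at 51 to 100 nt (n = 18), 12.9 at 101 to 200 nt (n = 12) and 13.5 in the 1 isoform with a longer distance. Spearman's rho across these 59 isoforms, some from the same gene, was 0.371. Overlapping members showed no such order, at 10.9, 11.3, 10.7 and 11.8 in these 4 ranges and 10.3 over 200 nt (n = 14), and had a rho of 0.038. A purine in the third position before the open AUG went with a half-life of 11.4 in overlapping members (10.9 to 12.1, n = 182), against 10.6 without it (10.0 to 11.3, n = 131). In in-frame members the order was the opposite, 11.3 (n = 30) against 12.0 (n = 29), with overlapping intervals.

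Among members with both values (161 isoforms of 144 loci), TE and half-life were nearly unrelated, with a Spearman's rho of 0.093. It was 0.178 for isoforms with contained AUGs (n = 202) and 0.309 for those with none (n = 588). Set against the medians of isoforms with no upstream AUG, 49 members combined a lower TE with a longer half-life and 39 a lower TE with a shorter one. The other members were 45 with both values higher and 28 with a higher TE and a shorter half-life. These rho values are descriptions over isoforms that share libraries and loci.

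Of the in-frame members with the highest coverage in both assays, Selenow had a TE of 0.000977 and a half-life of 13.6. For Emc10 these were 0.000812 and 13.2. Psmc5 had 0.00126 and 12.3, the highest TE of the 5 listed. An unnamed isoform at chr10:81220279-81224184 (251 nt leader, extension of 21 codons, 2 contained AUGs besides) had 0.000883 and 12.5. Another at chr11:3467523-3477942 (extension of 10 codons) had 0.000594 and 9.46, the lowest of the 5 in both assays. All but this last isoform had a TE above the median of isoforms with no upstream AUG, 0.000810. In 4 of these 5 isoforms the open AUG was the only one in the leader, and 4 of 5 half-lives exceeded the overall median of 10.9.

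Among overlapping members with the highest coverage, an unnamed isoform at chr10:80644332-80649331 had a TE of 0.00223, the highest of all members with a coverage of at least 300, and a half-life of 13.2. It had 2 open AUGs, in a 124 nt leader, and no contained one. Rpsa, a protein of the small ribosomal subunit, had a deposited leader of 702 nt with 8 contained AUGs and 1 overlapping AUG. Its most covered isoform had a TE of 0.000457 and a half-life of 12.9. The unnamed isoforms at chr8:84298329-84301430 and chr9:108216475-108217539 had TE values of 0.00106 and 0.00104, and half-lives of 12.8 and 13.4. All 3 unnamed isoforms had leaders of 156 nt or less and a TE above the median of isoforms with none.

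Atf5, whose overlapping upstream frame is known to hold back its translation until stress, carried 1 contained and 1 overlapping AUG, and the overlapping one had a G in the third position before it and a G directly after it. Its main isoform, with a coverage of 6175 in the polysome table, had a TE of 0.000788 and a half-life of 10.9. An Atf5 isoform with a longer leader (369 nt against 339 nt) had a TE of 0.000490 at a coverage of only 41. Ddit3, which encodes the stress factor CHOP, had 2 overlapping AUGs and no contained one. Its TE was 0.000934, at a coverage of only 47, and its half-life 9.79, at a coverage of 331. The most covered isoform of either gene lay between the TE quartiles of all isoforms, 0.000508 and 0.00105, whose median was 0.000734. No stress condition was part of the data.

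The lowest TE values at a coverage of at least 300 belonged to Pskh1 (0.000239), a kinase gene with 2 open and 2 contained AUGs, to Zbtb17 (0.000315), a zinc finger transcription factor with 1 and 3, and to Epn1 (0.000322), the endocytic adaptor epsin, with 1 and 4. The highest, besides the chr10 isoform above, were 0.00187 at chr4:150981591-150994320 and 0.00162 at chr7:97199749-97228648. Every one of the 3 lowest had at least 2 contained AUGs, as had 117 of the 337 members used for TE. Each of the 3 highest had none, as had 154 of the 337. These isoforms were picked by their TE and belong to the members grouped by contained AUGs above, so they add no separate evidence. Aspscr1, which encodes a tether of the glucose transporter GLUT4, had the longest in-frame extension at a coverage of at least 100 in the polysome table, 77 codons, and a TE of 0.000720. In the decay table the longest, 190 codons, belonged to an isoform at chr16:16948004-16950174 with a half-life of 9.32, whose frame was open from the first base.

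Half-life was lowest, at a coverage of at least 300, for Jph2 (7.81) and Ubtd1 (8.15), and for an in-frame isoform at chr3:101993831-102053818 (8.56). It was highest for overlapping isoforms at chr5:100666319-100695639 (25.1), chr19:4282510-4283685 (23.6) and chr4:139074757-139079650 (21.3). Both Jph2 and Ubtd1 had the open AUG within 25 nt of the main start, as had U2af1l4, whose half-life was 13.2. Slc6a9 had 5 open AUGs of both kinds and a TE of 0.000418.

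The sarcomere list had 28 named isoforms of 14 genes with TE, of which 4 isoforms of 3 genes were members. Actn2 had a TE of 0.000354 and a half-life of 9.25. Actc1, cardiac alpha-actin, had TE values of 0.000743 and 0.000468 for its isoforms and a half-life of 10.5, whereas Tnnt2 had 0.000945 and 12.9. The median TE of these 4 was 0.000605, against 0.00108 for the list's other isoforms. In half-life 3 of 27 isoforms were members, with a median of 10.5 against 12.1. Of the myogenic regulators, Myog had an in-frame member with a half-life of 9.06. Its annotated partner without the AUG had a coverage of 2316, so a defining marker of differentiating muscle was well covered in these cells.

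Among ribosomal proteins and translation factors, 4 of 32 named isoforms with TE were members, 3 from Rpsa and 1 from Rpl36al. Their median TE was 0.000417, against 0.00112 for the others, and Rpl36al, with a deposited leader of 902 nt and 5 contained AUGs, had 0.000548. For half-life the list had 7 members of 46 isoforms, with a median of 18.3 against 12.6. The 4 Rpsa isoforms had half-lives of 12.9, 18.3, 18.3 and 23.7, Eif5a (a translation elongation factor, in-frame, 20 codons) 19.2, Rpl9 14.0 and Rpl36al 12.6. These values rest mainly on Rpsa.

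Respiratory chain genes held 1 member of 20 isoforms with TE, the ATP synthase subunit gene Atp5c1 at 0.000522, against a median of 0.00129 for the others. In half-life 4 of 30 were members, Atp5c1 at 14.2, the assembly factor Ndufaf1 at 11.4, Ndufa4 at 10.6 and the muscle cytochrome oxidase subunit Cox7a1 at 8.03, with a median of 11.04 against 12.2. Psmc5 was the only proteasome member, of 9 isoforms with TE and 11 with half-life. Members had the lower median TE in the sarcomere, ribosome and respiratory chain lists and the higher one in the proteasome list. In the respiratory chain and proteasome lists this was a single isoform each, and 3 of the 4 ribosome members came from Rpsa. Deposited leaders of the Rpsa, Rpl36al and Atp5c1 members with TE were 702, 902 and 743 nt long. The part of leader length was not tested.

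Isoforms of the same locus with the same 3′ end allowed a comparison in which the 3′ UTR was equal and the shorter leader was the end of the longer one. Splicing between the ends is not in the tables, but in some pairs the starts lay further apart than the added leader is long. In Myl6b, starts at 128334537 and 128333266 went with an added leader of 61 nt. An intron then lies between such starts in the longer isoform. In each pair the longer leader contained the shorter one and only the longer had an open AUG. The added leader could bring contained AUGs as well, so these pairs do not show an open AUG alone. TE was lower in the longer isoform in 13 of 14 loci, where the share was 63.1% over all 236 loci with nested leaders. The median difference was -0.52 log2 (-1.31 to -0.36), and single loci ran from -1.50 to 0.03. All 3 in-frame pairs were lower (median -0.68), as were 10 of 11 overlapping pairs (-0.50). Where a shorter leader with no upstream AUG gained only contained AUGs, TE was lower in 34 of 44 loci, with a median of -0.30 (-0.53 to -0.17). In a further group the longer leader brought no open AUG and no first upstream AUG. It could still add contained AUGs to a leader that already held some. There TE was lower in 111 of 184 loci, with -0.11 (-0.20 to -0.04). Some shorter leaders were too short to show a shared main start, with under 20 nt in 2 of the 14 loci. With a shorter leader of at least 20 nt, a condition added after the data had been seen, TE was lower in 12 of 13 loci (median -0.53), where the share over all 212 such loci was 64.6%. At a coverage of at least 15 it was lower in 23 of 27 loci (median -0.50). At a coverage of at least 60 it was lower in 5 of 6, with a median of -0.44 whose interval included 0 (-1.31 to 0.03). Where the shorter isoform was also annotated, TE was lower in 4 of 5 loci (-0.50). Added lengths were unlike, with medians of 127, 121 and 43 nt. Pairs under 20 nt apart that gained no open AUG spread by an SD of 0.32 (10 loci).

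**Figure D5:**
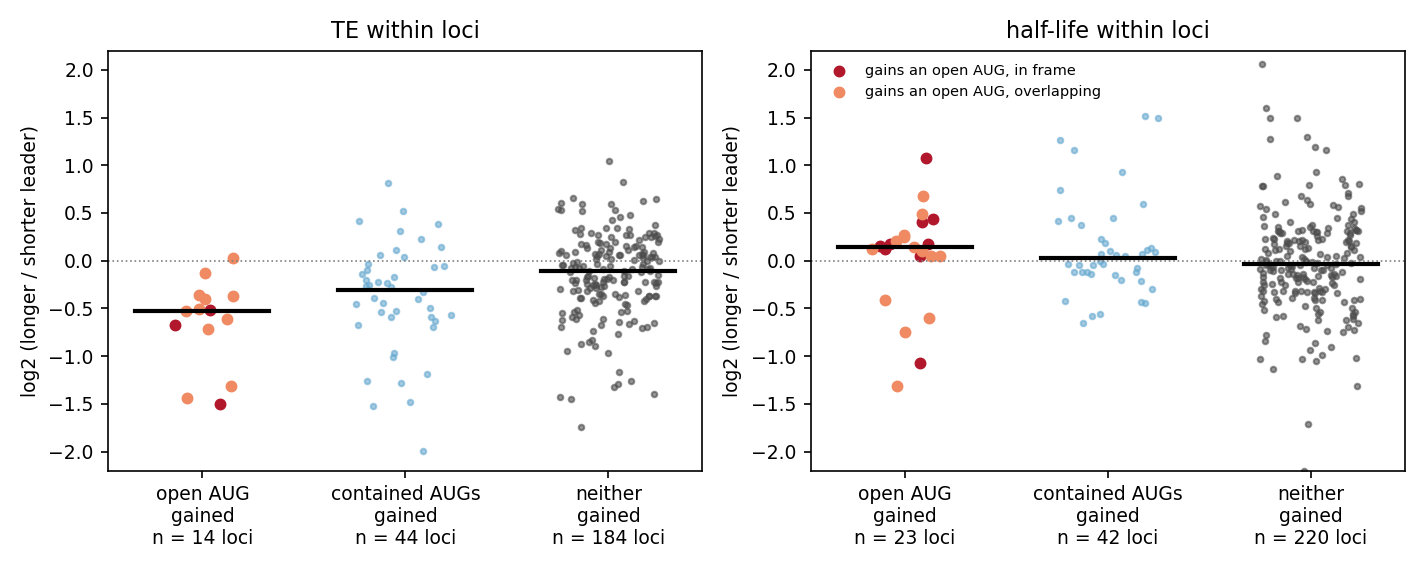
Log2 ratio of the isoform with the longer leader over the one with the shorter leader in the same locus, 1 pair per locus, for TE (left) and half-life (right). Columns hold loci in which the longer leader brings an open AUG (large points, dark red in frame, orange overlapping) or a first upstream AUG with contained AUGs only (blue). Loci that gain an open AUG may gain contained AUGs besides. The grey column, labelled neither gained, holds loci that gain no open AUG and no first upstream AUG, though contained AUGs may be added to others. Thick bars are medians. With an open AUG gained, TE is lower in 13 of 14 loci and half-life longer in 18 of 23. The axis runs from -2.2 to 2.2 and leaves out 5 pairs.

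The widest in-frame TE difference was in Cgref1, at 0.000552 with the 183 nt leader (coverage 48), against 0.00156 with the 68 nt leader (coverage 96). The unnamed pairs on chromosome 7 (3′ end at 4507660) and chromosome 11 (3′ end at 70553336) had 0.000682 against 0.00109 and 0.000597 against 0.000853. Every one of these counts was low, at most 101. For overlapping AUGs, Ssr4 had a TE of 0.000819 with its 228 nt leader, against 0.00125 with its 28 nt leader. An unnamed gene on chromosome 8 (3′ end at 84298329) had 0.00106 at a coverage of 6885, against 0.00136 at a coverage of 494. The sole exception of the 14 loci, also on chromosome 8 (3′ end at 106055687), had 0.00127 against 0.00125.

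Half-life went the other way in most loci. It was longer in the isoform with the open AUG in 18 of 23 loci and shorter in 5, where over all 284 nested pairs 51.1% were shorter in the longer isoform. The median difference was 0.14 log2 (0.05 to 0.25), with 8 of 9 in-frame pairs longer (median 0.17) and 10 of 14 overlapping pairs (0.11). Gaining only contained AUGs went with 22 of 42 longer (0.03), and gaining no open and no first upstream AUG with 101 of 220 (-0.03). The sizes were small beside the SD of 0.55 between pairs under 20 nt apart that gained no open AUG (14 loci). Single loci ran from -1.31 in Elp5, a subunit of the Elongator complex, to 1.07 in Hnrnpl, a splicing regulator, both named after their values had been seen. Coverage of the longer isoform was only 37 in Elp5 and 35 in Hnrnpl. The shorter Elp5 isoform had a leader of 4 nt, too short to show a shared main start. In 4 of the 23 loci the shorter leader was under 20 nt, and with at least 20 nt half-life was longer in 16 of 19 loci (median 0.14), where 51.8% of all 253 such pairs were shorter. Restricted to loci whose shorter isoform was also annotated, 0 of 14 were shorter, with a median of 0.21, so all 5 exceptions had a shorter isoform that starts at a new site.

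Srpk3 had a half-life of 12.0 with its in-frame AUG, against 10.6 in the isoform starting 30 nt downstream. In Myog, where an added 38 nt brought the in-frame AUG, the values were 9.06 at a coverage of 47, against 8.73 at a coverage of 2316. Unnamed in-frame pairs on chromosome 7 (3′ end at 4507660) and chromosome 19 (3′ end at 3999339) had 16.2 against 14.6 and 13.1 against 12.0. Among overlapping pairs Ssr4 had 18.1 against 16.4, Nme2, a nucleoside diphosphate kinase, 13.6 against 13.1, and a gene on chromosome 4 (3′ end at 116493708) 12.997 against 12.1. In Actn2 the values were 9.25 against 8.04, but the shorter isoform had a deposited leader of 1 nt and began at 12285739, near the 3′ end at 12284315 and far from the longer isoform's start at 12355613. It leaves too little sequence for the frame of alpha-actinin, so this locus is no comparison at an equal main frame. Cgref1 was the in-frame exception, with 12.0 against 25.3 at coverages of 35 and 254.

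In the 8 loci with such a pair in both assays, TE was lower with the open AUG in all. Half-life was longer in 5 of them, among them Ssr4, Nme2 and Pgls, an enzyme of the pentose phosphate pathway. It was shorter in the others, among them Cgref1 and Myl6b, a myosin light chain gene. The isoforms compared were not always the same in both assays. An end differed in Ssr4, in Myl6b and in the loci on chromosome 7 (3′ end at 4507660) and chromosome 4 (3′ end at 116493708). Pgls and Myl6b were named after their values had been seen. Where both isoforms already had an open AUG, TE was lower in the longer one in 7 of 13 loci (median -0.05) and half-life in 13 of 21 (-0.06).

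The limit of 30 nt on leader length kept few isoforms out. Just inside it, 11 annotated isoforms with an open AUG and leaders of 31 to 40 nt had a median TE of 0.000856, against 0.00111 in 12 isoforms of 21 to 30 nt just outside. Half-life medians were 10.5 inside (16 isoforms) and 11.3 outside (14 isoforms).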

How the data were processed

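The submitters' processing notes name bcl2fastq 2.20.0, cutadapt 1.16, UMI-tools 0.5.4, STAR 2.5.3a and the build GRCm39. The clustering of ends has no stated method. The authors deposited, for each isoform, a coverage count pooled over the libraries of an assay and a score, TE or half-life, whose formula is not given. Of the tables' columns 0 belonged to a single library, so depth per library is unknown and the planned comparisons stayed descriptive. Counts were used only as a minimum (30) and in the fit.

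Leaders were scanned for ATG in all frames and for in-frame TAA, TAG or TGA before the leader's end. Isoforms sharing an end, or overlapping and sharing 20 bases beside the start or stop codon, formed a locus. Promoter windows (250 bases before to 50 after a gene's start) gave gene names by a unique match on the same chromosome and strand; names through a shared main start were added after the data had been seen. Medians have 95% order-statistic intervals and shares Wilson intervals, which cover sampling of isoforms only. Intervals of differences of medians combine those of both groups, as the root of their summed squares. For means of log2 values the interval widths of the medians were used. Named isoforms were the 5 most covered in-frame and overlapping members, the 3 highest and lowest values at a coverage of 300, the 3 most covered pairs per frame class, the extremes of distance, and members of the gene lists. The members and lists were chosen with earlier results of these data known. The fit (statsmodels 0.14.6, pandas 2.3.3, Python 3.11.15) and class calls were tested on simulated data.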

Additional observations from a re-analysis of the deposited data

How the results depend on the processing

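Of 82 alternative settings over 16 results, 77 moved the value by less than its interval and 0 turned a called direction. The overlapping TE difference from isoforms with no upstream AUG was -0.11 for leaders with exactly 1 upstream AUG. The in-frame half-life difference was -0.061 with a coverage of at least 100. Counting leaders of any length put the share of members at 17.5% in the polysome and 15.2% in the decay table. With an annotated partner required, 0% of 14 loci had a shorter half-life with the open AUG. The causes were not tested. The only setting added after the data had been seen, a shorter leader of at least 20 nt in the pairs, gave 92.3% of loci with lower TE and 15.8% with shorter half-life. No paired analysis was possible because the tables hold no value per mouse. For the same reason no mouse could be left out. Coverage limits the in-frame class: 16 of its isoforms with TE reached a coverage of 100.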
